A study of Rattus norvegicus with 6 samples.

Results

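The transcripts described here are those of red cells and of neutrophils in the kidneys of newborn Han:SPRD rats: Hbb, Alas2, Defa5, RatNP-3b, S100a8, S100a9, Mpo and Camp. They were taken by gene name from the array annotation, with every probe of each gene, which gave 11 of the 41012 probes for these 8 of the 15542 genes that could be named. Defa5 was found through its accession, since the array calls it by an older name, and the other 10 probes were found by gene name. The set was chosen because Hbb, Defa5 and RatNP-3b were low on the Cy/+ arrays, and the question was whether the blood content of the pools differed. Member values on those arrays are therefore a description and carry no test.

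Total RNA came from the left kidney of Han:SPRD rats aged 3 or 7 days, of the genotypes +/+, Cy/+ or Cy/Cy, and the RNA of a genotype and age was pooled. The Cy allele causes polycystic kidney disease, slowly in heterozygotes and early in homozygotes. Each of 6 arrays set 1 pool in Cy5 against an age-matched +/+ pool in Cy3, so each genotype had 1 array per age. Both kidneys were taken out fast under anaesthesia and the animals bled out in the process; whether blood was flushed from them is not given in the sources used here. The number of animals in a pool was not given, so the spread between arrays is that between pools of different age.

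A kidney RNA sample holds RNA from whatever blood stays in its vessels. Young red cells (reticulocytes) still carry globin mRNA, and in newborn rodents many red cells are of this kind; haemoglobin is built of alpha-globin and beta-globin chains around haem. ALAS2 is the erythroid form of the first enzyme of haem synthesis. Neutrophils make their granule proteins at successive stages in the bone marrow: myeloperoxidase (Mpo) and, in the rat, alpha-defensins (Defa5, RatNP-3b) early, and cathelicidin (Camp) later, while the calcium-binding pair S100a8 and S100a9 fills the cytosol of mature neutrophils and of some monocytes. In bulk RNA, fewer cells of a type and less RNA per cell cannot be told apart.

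The probes are 60 bases long, and their sequences are shown because they decide which transcripts a signal can come from. The Hbb probe (rn3 chr1:161701424-161701483, minus strand) begins at base 1 of the Hbb transcript annotated by RefSeq on GRCr8, and its start codon, in capitals in its last 30 bases, lies at base 48:
Hbb probe, last 30 bases: actcagaaacagacaccATGgtgcacctga
The first 50 bases of this probe were compared with all annotated transcript starts. They also resembled the starts of Hbb-b1, Hbb-b2, Hbb-bs and Hbbl1, the other beta-globin genes of the cluster, at 86.4% to 87.2% of the aligned bases, so the signal cannot be assigned to Hbb alone. The probes of Alas2 (rn3 chrX:39863822-39863881, plus strand) and of the alpha-defensins RatNP-3b (rn3 chr16:75335348-75335407, minus strand) and Defa5 (rn3 chr16:75024706-75024765, minus strand) carry the other values that the results turn on:
Alas2 probe: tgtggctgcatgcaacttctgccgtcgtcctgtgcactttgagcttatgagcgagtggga
RatNP-3b probe: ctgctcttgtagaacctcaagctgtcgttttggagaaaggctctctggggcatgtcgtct
Defa5 probe, first 30 bases: cgctgagcactccgaccaagaagaatccat
Alpha-defensins are a family of near copies. The probe of another one, Np4, matched the 5′ end of the annotated RatNP-3b transcript at 39 of 41 aligned bases, so these signals are also not fully separate.

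S100a8 had 3 probes and Camp had 2, and probes of 1 gene did not lie on the same strand. S100a8 probe 1 (rn3 chr2:182912434-182912493) lies on the plus strand, whereas probes 2 and 3, designed on an expressed sequence tag, lie on the minus strand. Camp probe 1 (rn3 chr8:114234442-114234501) lies on the minus strand and probe 2, also from a tag, on the plus strand. The pairs are printed to show that the dim probe of each gene reads the other strand:
S100a8 probe 1: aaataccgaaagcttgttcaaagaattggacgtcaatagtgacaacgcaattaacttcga
S100a8 probe 3: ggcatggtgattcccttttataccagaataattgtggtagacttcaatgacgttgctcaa
Camp probe 1: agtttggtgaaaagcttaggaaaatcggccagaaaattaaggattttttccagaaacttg
Camp probe 2: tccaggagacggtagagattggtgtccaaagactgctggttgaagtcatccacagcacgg
The probes of S100a9 (rn3 chr2:182937753-182937812, minus strand) and Mpo (rn3 chr10:76108429-76108488, plus strand) were the only ones of their genes. On the 4 arrays labelled Cy/+ and Cy/Cy, 8 of the 11 probes were well above background in both channels throughout, covering 7 of the 8 genes. S100a8 probe 3 and Camp probe 2 were not well above background in any channel of these arrays, and Mpo only in the Cy5 channel of the 3-day Cy/+ array. No member spot was saturated.

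Array quality and labels were checked first. Between 64.4% and 69.5% of probes were well above background in Cy3 and between 66.3% and 74.1% in Cy5. The 2 arrays labelled +/+, which should compare like with like, went against their label: of 14 kidney genes 13 were at least 2-fold lower in Cy5 than in Cy3 at each age, and all of 13 liver genes were at least 2-fold higher at each age. They are called the arrays labelled +/+ here, and they enter no comparison of genotypes. On the other 4 arrays, all 14 kidney genes were well above background in both channels. All arrays of an age lay on 1 slide, so age and slide cannot be told apart.

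By loess the Hbb probe and Alas2 read lower in the Cy/+ pools than in the +/+ reference at both ages. Values are log2 of Cy5 over Cy3 after loess normalisation, so that 0 means equal levels. For Hbb the log2 ratio was -1.60 on the 3-day and -1.13 on the 7-day Cy/+ array, a mean of -1.36 ± 0.13 (standard error of the fit, n = 2 arrays), or 2.57-fold lower. On the Cy/Cy arrays it was -0.83 at 3 days and -0.56 at 7 days, so Hbb was below its reference on all 4 arrays and lower in Cy/+ than in Cy/Cy at each age. For Alas2 the Cy/+ values were -0.58 and -0.44 and the Cy/Cy values -0.36 and -0.11, in the same order. The Cy/+ mean of Alas2 was -0.51 ± 0.09 (n = 2) with loess, but 0.03 when the arrays were only centred on their median, and that of Hbb was then -0.76. Median centring puts the median of the kept probes at 0.188 in Cy/+ and 0.17 in Cy/Cy, so Alas2 in Cy/+ stayed below the median probe. With the log ratios scaled to an equal spread between arrays after loess, the Cy/+ means were -3.61 for Hbb, -1.33 for Alas2, -3.92 for Defa5 and -2.95 for RatNP-3b, so the size of these differences, unlike their direction, depends on that scaling.

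**Figure D1:**
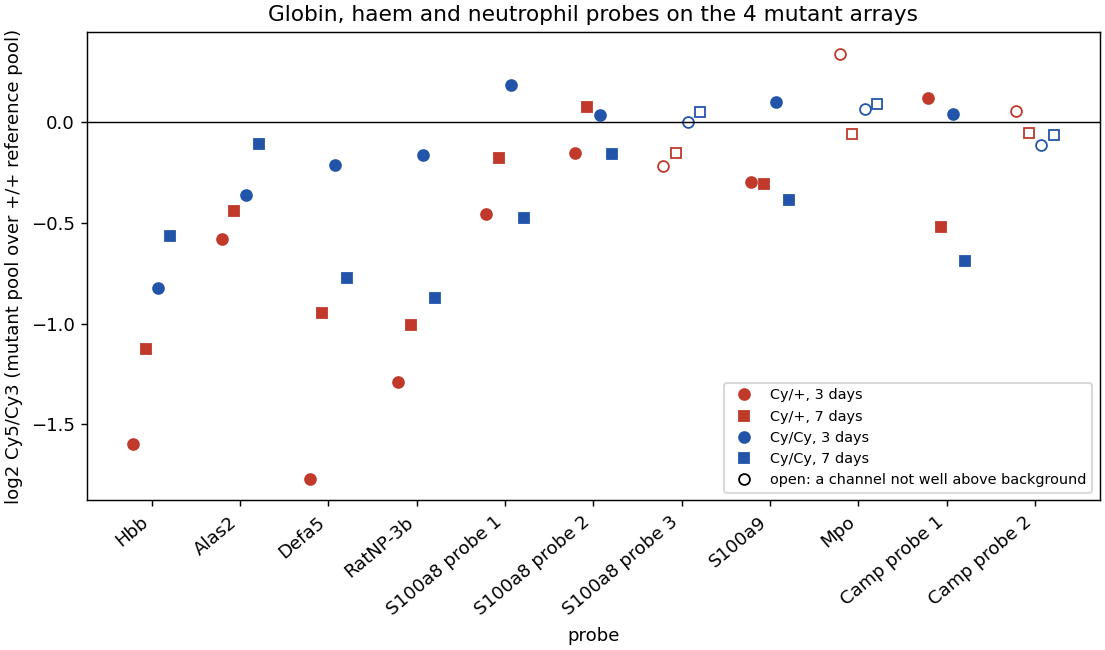
Log2 ratio of mutant pool (Cy5) to +/+ reference pool (Cy3) for each of the 11 probes, 1 point per array; red is Cy/+, blue Cy/Cy, circles 3 days, squares 7 days, and open symbols have a channel that is not well above background. Hbb, Alas2, Defa5 and RatNP-3b lie below 0 on all 4 arrays, from -1.77 for Defa5 in Cy/+ at 3 days to -0.11 for Alas2 in Cy/Cy at 7 days, while the S100a8, S100a9 and Camp probes lie on both sides of 0.

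Other red cell genes did not all follow Hbb. Of the other 7 genes of the globin list, 1 fell in Cy/+ and 0 rose; over all 30905 probes tested, 7.85% passed an adjusted p of 0.05, with 3.27% lower and 4.58% higher. The gene that fell was Ahsp, which codes for the chaperone of free alpha-globin, at -0.78 and -0.87 on the 3-day and 7-day arrays (mean -0.82 ± 0.08, adjusted p = 0.00782). Hbb-b1, a beta-globin of the same cluster measured by its own probe, read -0.27 and -0.52 (mean -0.39 ± 0.09, adjusted p = 0.0523), and 0.51 with median centring. The alpha-globin Hba-a3 read 0.46 and -0.01 (mean 0.23 ± 0.11, adjusted p = 0.245). By loess the alpha-globin Hba-a3 was thus above its reference in the 3-day Cy/+ pool, in which Hbb was lowest. By the scanner software's log ratio Hba-a3 read 0.13 and -0.19 in Cy/+, and with median centring its Cy/+ mean was 1.27. The value of Hba-a3 thus depends on the scaling. The list median in Cy/+ was -0.08, beside 0.00 over all probes tested.

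Among 17 genes of the red cell membrane and surface, 2 fell and 1 rose in Cy/+. Slc4a1, which codes for band 3, the anion exchanger of red cells that acid-secreting cells of the collecting duct also make, read -1.20 and -0.82 (mean -1.01 ± 0.12, adjusted p = 0.0120). Rhd, a Rhesus blood group gene, fell by 0.42 ± 0.09 (adjusted p = 0.0438). In the opposite direction, the water channel gene Aqp8 rose by 0.42 ± 0.07 (adjusted p = 0.0303). Its Cy3 signal was not well above background on either Cy/+ array (62.8 scanner units at 3 days, 52.8 at 7 days). The ratio of Aqp8 thus rests on a reference signal near background. The other 14 genes were not called, among them Rhag (-0.09), Epb42 (-0.19), Sptb (-0.08), Gypc (0.04) and Ank1 (0.02). Ank1 was not well above background in any channel of the mutant arrays, and Rhag in neither channel of the 7-day Cy/+ array. In Cy3, 13 of the 17 genes were well above background on the 3-day and 12 on the 7-day Cy/+ array. With median centring Slc4a1 read -0.58, Rhd -0.09 and Aqp8 0.16, which for Aqp8 is below the median of the kept probes; by the scanner software's log ratio Aqp8 read 1.99.

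Genes of haem synthesis and of the erythroid programme gave no call in Cy/+. Of 12 genes of haem synthesis and mitochondrial iron, 0 passed, and the largest values were -0.37 for Hmox1, which breaks haem down (adjusted p = 0.574), and -0.22 for Alad, the second enzyme of haem synthesis (adjusted p = 0.133). Hmox1 varied most between arrays, at -1.14 and 0.41 in Cy/+ and -1.59 and -0.41 in Cy/Cy. Of 12 erythroid transcription and maturation factors, 0 passed; Gata1, the erythroid master regulator, read -0.04 and Klf1, an activator of the adult beta-globin gene, -0.14. In Cy3 of the 3-day Cy/+ array 10 of the 12 were well above background, and Gata1 and Trim58 were not.

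The alpha-defensins were the other low members in Cy/+. Defa5 read -1.77 at 3 days and -0.95 at 7 days in Cy/+, a mean of -1.36 ± 0.21 (n = 2), and -0.21 and -0.77 in Cy/Cy. RatNP-3b read -1.29 and -1.01 in Cy/+, a mean of -1.15 ± 0.16 (n = 2), and -0.16 and -0.87 in Cy/Cy. The Cy/+ and Cy/Cy pools therefore stood apart at 3 days and were close at 7 days for both genes. Both signals were modest: on the 3-day Cy/+ array Defa5 gave 163 scanner units in Cy5 over a local background of 46, and 431 in Cy3 over 40. By the scanner software's log ratio the Cy/+ means were -1.845 for Defa5 and -1.719 for RatNP-3b. With median centring they were -1.15 and -0.99. Np4, another alpha-defensin of neutrophils, read -0.14 and -0.11 in Cy/+ (adjusted p = 0.302).

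S100a8, S100a9, Camp and Mpo did not share the low values of the defensins. S100a8 probe 1 read -0.46 and -0.18 in Cy/+ and 0.18 and -0.47 in Cy/Cy. S100a9, its partner in the calprotectin dimer, read -0.30 and -0.31 in Cy/+ and 0.10 and -0.39 in Cy/Cy, so both genes were above their reference in the 3-day Cy/Cy pool and below it in the other 3 pools. Camp probe 1 read 0.12 and -0.52 in Cy/+ and 0.04 and -0.69 in Cy/Cy, which puts both 3-day pools above 0 and both 7-day pools below. Mpo read 0.34 and -0.06 in Cy/+ and 0.07 and 0.09 in Cy/Cy, at or near background. Of the opposite-strand probes, S100a8 probe 2 stayed between -0.16 and 0.08, and S100a8 probe 3 and Camp probe 2 between -0.21 and 0.06.

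Counted by the brightest probe of each gene, 6 of the 8 genes were below 0 on both Cy/+ arrays, where 33.8% of all probes were, and 4 of the 8 on both Cy/Cy arrays, where 27.3% were. The 4 genes below 0 on all 4 arrays (17.5% of all probes) were Hbb, Alas2, Defa5 and RatNP-3b. Since the genes were chosen for low values on the Cy/+ arrays, nothing is read from these counts. By value, the choice separated RatNP-3b, the last of the low defensins at -1.15, from S100a8 probe 1 at -0.32, with Alas2 at -0.51 in between.

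Other leukocyte genes gave few calls in Cy/+, where 3.27% of all probes tested were called lower and 4.58% higher. Of 22 further neutrophil granule genes 20 were kept, of which 1 fell and 1 rose. Mmp9, a gelatinase stored in late granules, fell by 0.56 ± 0.08 (adjusted p = 0.0207), and Lyz2, the lysozyme gene of neutrophils and macrophages, rose by 0.47 ± 0.09 (adjusted p = 0.0385). The median of this list was -0.04, with 12 genes below 0 and 8 above, beside 49% of all probes tested below 0. In each channel of both Cy/+ arrays 12 of the 20 genes were well above background. The other genes read near background, which limits both the split and the median. Prtn3 and Ctsg, proteases of the same early granules as Mpo and the defensins, read -0.31 and -0.23 (adjusted p = 0.131 for each). Ctsg was not well above background in any channel of the mutant arrays, so nothing is read from its value. The stefin gene Stfa3 read -0.07 at 3 days and -1.66 at 7 days in Cy/+, and 0.33 and -1.63 in Cy/Cy, so that the 7-day pool was the lower in each genotype, as for Camp probe 1. Of 21 genes of the neutrophil surface, oxidase and signalling 12 were kept; 0 fell and 2 rose, the beta2 integrin gene Itgb2 (0.53 ± 0.08, adjusted p = 0.0208) and the decoy receptor gene Il1r2 (0.38 ± 0.08, adjusted p = 0.0419). That list had 11 genes above 0 and 1 below, with a median of 0.21. In Cy3, 9 of its 12 genes were well above background on the 3-day and 8 on the 7-day Cy/+ array. Of 15 macrophage genes 1 rose, the endotoxin co-receptor gene Cd14 (0.52 ± 0.07, adjusted p = 0.0173), and 0 fell. The macrophage list had 12 genes above 0 and 3 below, with a median of 0.12. Platelet (9 genes), lymphocyte (16 genes), mast cell and eosinophil (11 genes) and endothelial lists (12 genes) gave 0 calls. Their largest values were 0.32 for Plek, 0.27 for Cd3g, 0.30 for Prg2 and -0.44 for the endothelial receptor gene Tie1 (adjusted p = 0.0845). In Cy3 of the 3-day Cy/+ array, 5, 8, 5 and 12 genes of these lists were well above background. Genes such as Cd3e and Prg3 were well above background on no mutant array and were kept only through the arrays labelled +/+. For such genes a call was unlikely from the start.

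The calls in Cy/+ depend on how the arrays are scaled. By loess 2427 probes were called with limma. With the scanner software's own log ratio 0 were called (7791 at an unadjusted p under 0.05), and with scaling between arrays also 0 (509 unadjusted). Leaving out the 3-day Cy/+ array left 797 calls, leaving out the 3-day or the 7-day Cy/Cy array left 1000 each, and leaving out the 7-day Cy/+ array gave 3214. Beside the blood cell genes, 4 of 13 liver genes rose in Cy/+ (Tf by 0.98 ± 0.10, Fga, Fgb and Fgg) and 0 fell, and of 14 kidney genes 4 rose and 4 fell, with Calb1 at -1.65 ± 0.12 and Kap at 0.94 ± 0.14. Alb, the main plasma protein gene of the liver, read 0.28 and -1.18 in Cy/+ and 0.30 and 1.64 in Cy/Cy. The part of these shifts in the member values was not tested.

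**Figure D2:**
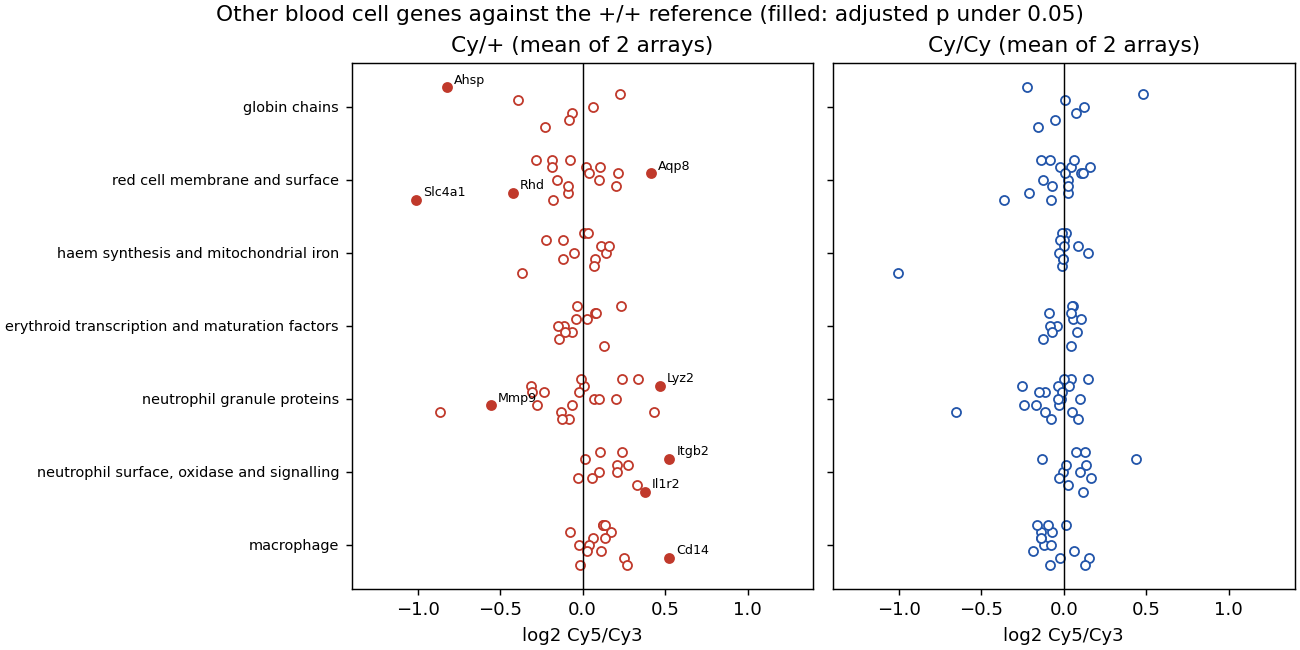
Mean log2 ratio of the 2 Cy/+ arrays (left) and the 2 Cy/Cy arrays (right) against the +/+ reference for the genes of 7 blood cell lists, members left out; each circle is 1 gene and filled circles passed an adjusted p of 0.05 over all probes. In Cy/+ the red cell lists hold calls in both directions, from Slc4a1 at -1.01 to Aqp8 at 0.42, and in Cy/Cy no gene was called. The Cy3 signal of Aqp8 was not well above background on the Cy/+ arrays.

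The Cy/Cy arrays were not used to choose the genes, and there no member passed the test. Their ratios are still not fully free of that choice, since both genotypes were set against an age-matched +/+ reference. Cy3 levels of the Cy/+ and Cy/Cy arrays correlated at 0.998 at 3 days and 0.999 at 7 days. A gene chosen as low in Cy/+ over a high reference would tend to read low here too. Over all 30905 probes, 0% were called at an adjusted p of 0.05 with limma, and 8.66% (2675 probes) had an unadjusted p under 0.05. Hbb, at -0.83 and -0.56, had a mean of -0.69 ± 0.13 (n = 2, 1.62-fold lower, adjusted p = 0.330). RatNP-3b had a mean of -0.52 ± 0.16 (adjusted p = 0.514), Defa5 -0.49 ± 0.21 (adjusted p = 0.576) and Alas2 -0.23 ± 0.09 (adjusted p = 0.551). Of the 11 probes 3 had an unadjusted p under 0.05, those of Hbb, RatNP-3b and Alas2. Adjusted p-values of the members lay between 0.330 and 0.926. Hbb passed at an adjusted p of 0.0404 when either Cy/+ array was left out of the fit, which changes only the estimate of the spread, and with median centring Hbb read -0.17 and Alas2 0.23. In the same pools Hba-a3 read 0.50 and 0.47 (mean 0.48 ± 0.11, adjusted p = 0.447), Ahsp -0.22 ± 0.08 (adjusted p = 0.536) and Slc4a1 -0.36 ± 0.12 (adjusted p = 0.521). The beta-globin Hbb-b1, measured by its own probe, read -0.09 and 0.10 there (mean 0.01 ± 0.09, adjusted p = 0.989). By the scanner software's log ratio Hba-a3 read 0.11 and 0.27. With median centring the Cy/Cy means were 0.75 for Hbb-b1 and 1.35 for Hba-a3.

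Between the genotypes, Cy/Cy minus Cy/+ was 0.67 ± 0.18 for Hbb, 0.28 ± 0.13 for Alas2, 0.87 ± 0.29 for Defa5 and 0.63 ± 0.23 for RatNP-3b (log2, 2 arrays each). With scaling between arrays they were 3.11, 1.14, 3.66 and 2.69. These differences contain the Cy/+ arrays that chose the genes and are given without a test. S100a8 probe 1 (0.17 ± 0.22), S100a9 (0.16 ± 0.17), Camp probe 1 (-0.12 ± 0.29) and Mpo (-0.06 ± 0.15) differed by no more than their standard error. Cy/+ was the lower of both genotypes for 6 of the 8 genes at 3 days and for 5 at 7 days, where 49.9% and 49.7% of all probes were.

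From 3 to 7 days Alas2, whose enzyme sets the pace of haem synthesis in red cell precursors, fell. Its normalised level (log2 of the channel signal) went from 12.96 to 11.95 in the +/+ reference, from 12.27 to 11.49 in Cy/+ and from 12.70 to 11.86 in Cy/Cy. All 3 values at 7 days were below all 3 at 3 days. The mean change was -0.88 ± 0.08, 1.84-fold lower at 7 days (3 pools per age, pool as a block, adjusted p = 0.0159), in a comparison that called 9.7% of all probes, 4.28% as lower and 5.42% as higher. Without the +/+ reference pool the change was -0.81 with an adjusted p of 0.128, and 0 probes were called (4720 at an unadjusted p under 0.05), so the calls by age named below were also lost. Without the Cy/Cy pool 157 probes were called, and without the Cy/+ pool 5671. Without the pool as a block the adjusted p was 0.0508. The pools of an age share arrays, so the 3 values are not independent.

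No other member passed in this comparison. Hbb went from 13.82 to 13.35 in the reference, from 12.24 to 12.25 in Cy/+ and from 12.99 to 12.76 in Cy/Cy, a mean of -0.23 ± 0.10 (adjusted p = 0.191). The Cy/+ pool thus read nearly the same at both ages. Without the Cy/+ pool the mean was -0.35 (adjusted p = 0.0389). Defa5 went from 8.89 to 8.94 in the reference, from 7.08 to 7.96 in Cy/+ and from 8.71 to 8.20 in Cy/Cy, and RatNP-3b moved in the same directions, from 8.33 to 8.61, from 7.06 to 7.63 and from 8.15 to 7.72. The 3 pools thus moved apart in direction, with means of 0.14 ± 0.24 and 0.14 ± 0.18 (adjusted p = 0.729 and 0.638). S100a8 probe 1 (-0.33 ± 0.13, adjusted p = 0.156), S100a9 (-0.25 ± 0.15, adjusted p = 0.294), Mpo (-0.25 ± 0.12, adjusted p = 0.212) and Camp probe 1 (0.05 ± 0.15, adjusted p = 0.849) were not called. Without the Cy/+ pool S100a8 probe 1 passed, at -0.47 (adjusted p = 0.0438). The change of Camp probe 1 was 0.51 in the reference, -0.21 in Cy/+ and -0.15 in Cy/Cy.

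**Figure D3:**
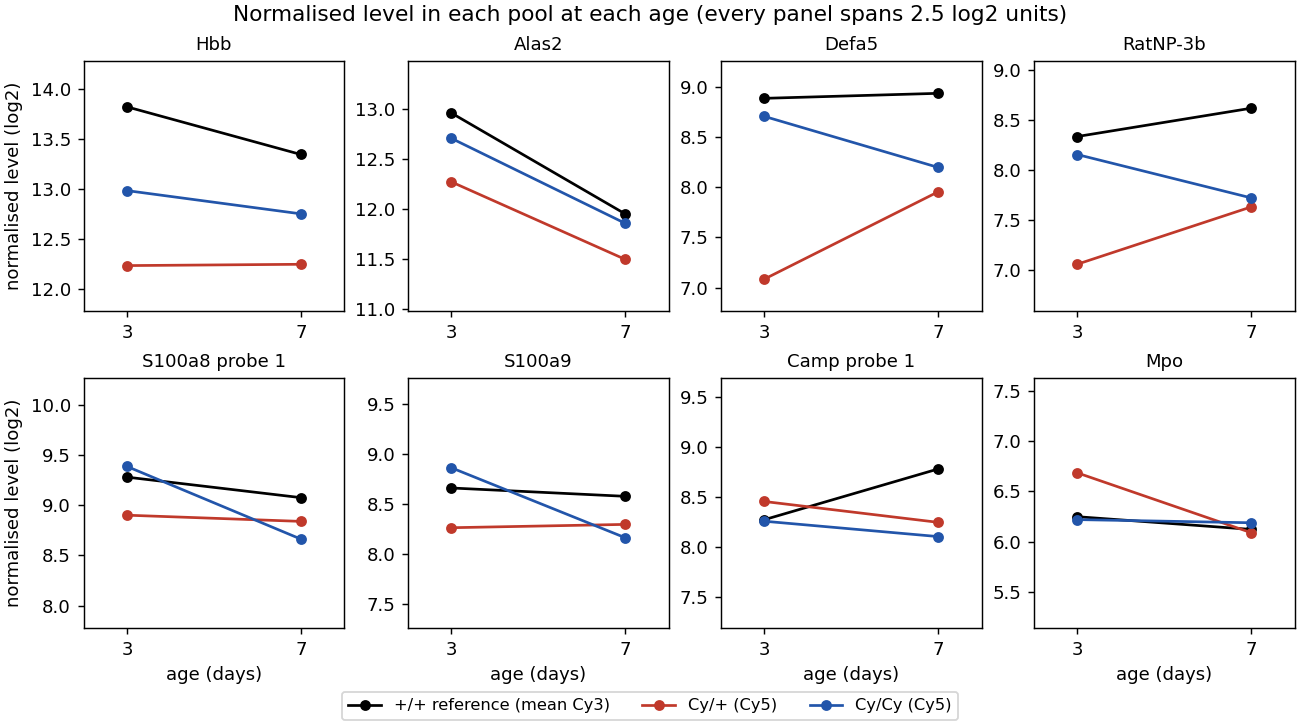
Normalised log2 level of the brightest probe of each gene in the +/+ reference (mean Cy3 of the 2 mutant arrays, black), the Cy/+ pool (red) and the Cy/Cy pool (blue) at 3 and 7 days, 1 point per pool and age; every panel spans 2.5 log2 units. Alas2 falls in all 3 pools, by 1.01, 0.77 and 0.85, while the Defa5 lines of Cy/+ (7.08 to 7.96) and Cy/Cy (8.71 to 8.20) run in opposite directions.

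Some other red cell genes also fell with age, in a comparison that called 4.28% of all probes as lower and 5.42% as higher. Of 7 genes of the globin list 2 fell and 0 rose: Hbe2, an embryonic beta-type globin, by 0.40 ± 0.07 (adjusted p = 0.0302) and Hba-a3 by 0.36 ± 0.08 (adjusted p = 0.0497). Of 17 red cell membrane genes 3 fell and 0 rose: Epb42, which anchors band 3 (-0.52 ± 0.07, adjusted p = 0.0204), Slc4a1 (-0.49 ± 0.09, adjusted p = 0.0349) and the adducin gene Add2 (-0.46 ± 0.11, adjusted p = 0.0498). Of 12 erythroid factors 1 fell, Hemgn (-0.37 ± 0.07, adjusted p = 0.0325), and of 12 genes of haem synthesis and iron 0 passed. All 7 globin list genes read below 0, with a median of -0.29, beside 0.01 over all probes tested, of which 48.5% were below 0. Of the membrane genes 12 were below 0 and 5 above (median -0.16), and of the erythroid factors 9 and 3 (median -0.11). Haem synthesis and iron genes were split, with 7 below 0 and 5 above (median -0.01).

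Some leukocyte genes also changed with age. Of 15 macrophage genes 7 fell and 0 rose, led by Ctss, a lysosomal protease (-0.78 ± 0.07, adjusted p = 0.0173), Cd14 (-0.68 ± 0.07, adjusted p = 0.0174), Cd163, the scavenger receptor for haemoglobin (-0.64 ± 0.08, adjusted p = 0.0210), and the complement gene C1qa (-0.63 ± 0.10, adjusted p = 0.0279). Of 20 neutrophil granule genes Lyz2 (-0.99 ± 0.08, adjusted p = 0.0159) and Fcnb (-0.68 ± 0.09, adjusted p = 0.0230) fell and Mmp9 rose (0.35 ± 0.07, adjusted p = 0.0395). Lyz2 and Fcnb are also made by macrophages and monocytes. The integrin genes Itgb2 (-0.50 ± 0.08, adjusted p = 0.0254) and Itgam (-0.37 ± 0.08, adjusted p = 0.0406) fell among 12 neutrophil surface genes, as did the platelet gene Gp1bb (-0.45 ± 0.08, adjusted p = 0.0288) among 9. Lymphocyte, mast cell and eosinophil lists gave 0 calls, but many of their genes were near background on the mutant arrays. Lists of other tissue cells moved too: of 13 liver genes 4 fell, led by Tf (-1.35 ± 0.10, adjusted p = 0.0152), and Fgb rose (0.38 ± 0.07, adjusted p = 0.0314). Of 12 endothelial genes 3 rose, Tie1 (0.55 ± 0.10), Plvap (0.38 ± 0.07) and Cdh5 (0.32 ± 0.06), and 0 fell. Of 14 kidney genes Slc22a6 rose (0.49 ± 0.07) and Aqp1 fell (-0.48 ± 0.07). The part of these shifts in the age values of the blood cell genes was not tested.

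On the arrays labelled +/+ every member was high in Cy5. All 11 probes were at least 2-fold higher in Cy5 than in Cy3 on both arrays, where 9.49% of all probes were. S100a8 probe 3 and Camp probe 2 were kept only because they were well above background on these 2 arrays. Mpo would also not have been kept without them. For this reason nothing is read from the count. Defa5 read 5.21 at 3 days and 4.87 at 7 days, RatNP-3b 5.004 and 4.54, Camp probe 1 5.16 and 4.38, S100a8 probe 1 4.51 and 4.08 and S100a9 4.42 and 4.05. The red cell members stood lower, with Hbb at 1.02 and 1.54 and Alas2 at 1.56 and 1.34, and Mpo, low on the other arrays, was well above background in both channels at 2.74 and 2.28. The opposite-strand probes were high as well. S100a8 probe 2, well above background in both channels, read 2.82 at 3 days and 2.73 at 7 days. S100a8 probe 3 read 1.76 at 3 days and, against a Cy3 signal not well above background, 2.03 at 7 days. Camp probe 2 is given as at least 2.96-fold higher, since its Cy3 signal was not well above background on either array. The order of the neutrophil genes on these arrays, with defensins and Camp above S100a8 and S100a9 at 3 days, rests on 1 array per age. The stefin genes Stfa3 (8.39 and 8.25) and Stfa2 (7.16 and 7.13) and the gene of haptoglobin, Hp, which binds free haemoglobin and is also made in liver (5.59 and 5.15), were also high there.

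The +/+ reference channel itself did not read alike on all arrays of an age. At 3 days the Cy3 level of Defa5 was 8.86 on the Cy/+ and 8.92 on the Cy/Cy array but 10.71 on the array labelled +/+, a difference of 1.82. RatNP-3b differed by 2.17 and Camp probe 1 by 0.97, and at 7 days the differences were 1.45 for Defa5, 1.56 for RatNP-3b and 0.67 for Camp probe 1. Hbb went the other way, lower by 0.48 at 3 days (-0.479) and by 0.34 at 7 days (-0.339) on the array labelled +/+. The alpha-globin Hba-a3 had a Cy3 level of 14.77 on the 3-day array labelled +/+ and of 17.18 and 17.26 on the mutant arrays of that age. Over all probes the median absolute difference was 0.179 at 3 days and 0.166 at 7 days, beside 0.0765 and 0.0416 between the mutant arrays. The Cy3 signals of the members on the Cy/+ and Cy/Cy arrays of an age differed by at most 0.212, the value of Alas2 at 3 days. For Alas2 alone among the 8 genes, all 3 Cy3 levels at 3 days were above all 3 at 7 days, which held for 16.7% of all probes.

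**Figure D4:**
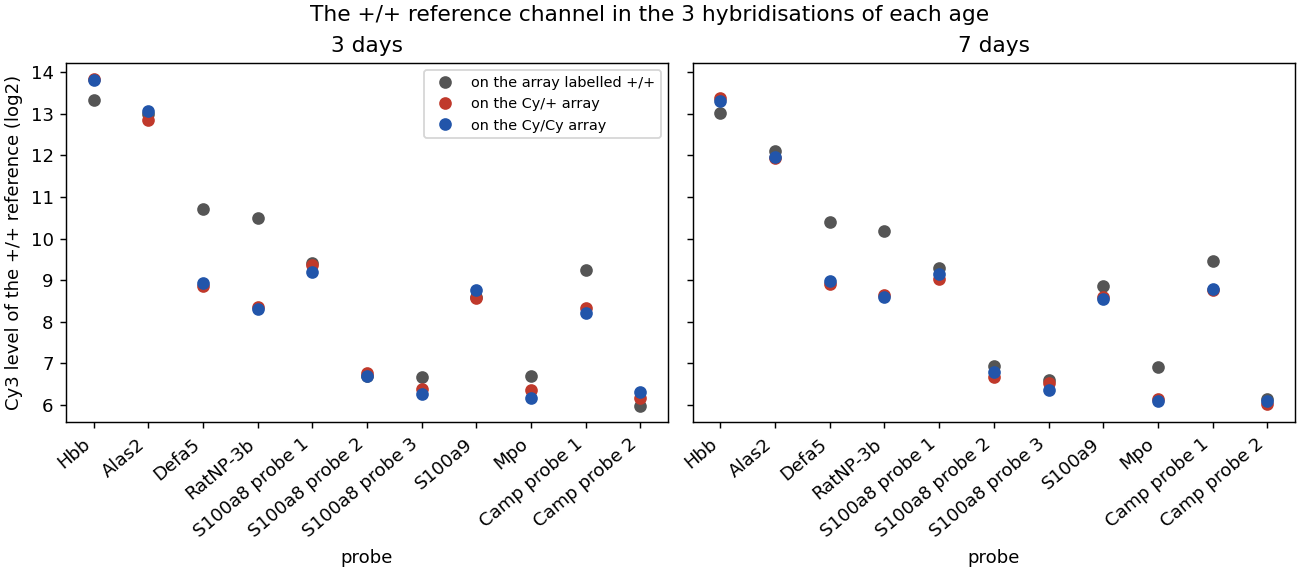
Cy3 level (log2) of the +/+ reference for each probe in the 3 hybridisations of 3 days (left) and 7 days (right); grey is the array labelled +/+, red the Cy/+ array and blue the Cy/Cy array. Red and blue points lie close together, within 0.212, while the grey points of Defa5 and RatNP-3b lie 1.45 to 2.17 above them.

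The genes whose levels ran closest to Hbb were not red cell genes. Over the 8 channel values of the 4 mutant arrays, which share arrays and reference pools, the highest Pearson correlations with Hbb among 1256 candidate probes were those of Errfi1 (0.992), Adcy6 (0.990), S100g (0.982), Cwh43 (0.977), Bcan (0.977) and Ppp1r1a (0.973). S100g, which codes for the calcium-binding protein calbindin D9k, read -1.47 and -1.09 in Cy/+ and -0.53 and -0.29 in Cy/Cy, close to Hbb in Cy/+ and nearer to 0 than Hbb in Cy/Cy. The genes closest to Defa5 were Tbx3 (0.974), RatNP-3b (0.972), Nefl (0.971), Tcf12 (0.969), Nefm (0.967) and Sorcs3 (0.955), of which RatNP-3b alone is a neutrophil gene. Among the members, S100a8 probe 1 and S100a9 ran together (0.882), Alas2 and Hbb less closely (0.653), and Camp probe 1 was nearly unrelated to Hbb (0.182). With 8 values from 4 arrays these correlations describe the arrays only.

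The stretches just before the Hbb and Alas2 starts are shown because both genes are erythroid and low in the same pools. RefSeq promoters on GRCr8 were found for 6 of the 8 genes. In capitals are matches, on either strand, to the 4 letter strings searched: AGATAA, of the kind that GATA1 binds; CACCC, of the kind that Klf1 binds; CCAAT, found in many promoters; and GAGGAA, of the kind that the myeloid factor PU.1 binds. No matches overlap in these stretches:
Hbb upstream 140 bases (chr1:167663722-167663861, minus strand): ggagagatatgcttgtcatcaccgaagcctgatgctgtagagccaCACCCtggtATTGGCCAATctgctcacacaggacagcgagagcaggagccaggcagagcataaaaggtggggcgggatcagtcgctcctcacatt
Alas2 upstream 140 bases (chrX:22895310-22895449, plus strand): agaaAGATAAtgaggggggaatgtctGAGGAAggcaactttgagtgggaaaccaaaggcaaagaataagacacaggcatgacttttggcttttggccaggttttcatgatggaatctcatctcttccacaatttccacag
CACCC lies 95 bases before the Hbb start and occurs within 250 bases before the start in 49.2% of the 33469 promoters. CCAAT lies 86 and 81 bases before it, once on each strand, and occurs in 34%. For Alas2, AGATAA lies 136 bases before the start and occurs in 10.3%, and GAGGAA lies 114 bases before it and occurs in 23.3%. Within the 250 bases, Hbb has no AGATAA and Alas2 no CACCC. The neutrophil genes RatNP-3b and S100a9 hold both AGATAA and CACCC, Camp holds CACCC, and Mpo holds neither. These matches are letters only, not sites.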

How the data were processed

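The deposited spot signals and local backgrounds are intensity values, scanner brightness that was not normalised, per the file headers. Agilent Feature Extraction 9.5.1.1 also gave a log10 ratio (Cy5 over Cy3 after its own background subtraction and dye normalisation, per the file headers), which served as an alternative here; the authors' series-wide values are the same log10 ratios (largest difference 0). The series text names an older software version and another array product. Coordinates are those of the files (rn3).

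Computation used limma 3.58.1 under R 4.3.3, with version 1.17.8 of the data.table package. Mean signals were corrected with normexp (offset 50) and loess within arrays, with control and outlier spots (125 to 192 per array) at weight 0, and repeated spots were averaged. The filter required a signal well above background, in Cy3 or Cy5, on 2 or more arrays (30934 of 41012, all 11 members among them; 30905 had a value on all mutant arrays and were tested). Genotype means were fitted on the 4 mutant arrays with lmFit and eBayes (2 residual degrees of freedom, prior 4.61), ages on channel levels after Aquantile scaling with pool as a block (2 residual degrees of freedom, prior 3.94), with Benjamini-Hochberg adjustment over all probes tested. The scripts were tested on simulated data.

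The members, the lists and the tests were chosen with earlier results of these data known. Named besides the members were, from each list and test, up to 4 called genes with the largest change or, with none called, the 2 with the largest absolute change; for likeness, the 6 best correlated genes with an SD of at least 0.3. Rhag, Epb42, Sptb, Gypc, Ank1, Gata1, Klf1, Np4, Prtn3, Ctsg, Stfa2, Hp, Trim58, Alb, Stfa3 at its single arrays, and Hba-a3, Hbb-b1, Ahsp and Slc4a1 in tests where they were not called were named after their values were seen. One gene of the red cell membrane list is not reported here and was left out of the counts of that list. A gene stands for its brightest probe, and probes were named through RefSeq (20101 named). Nothing in the labels says that pools of a genotype came from separate litters, and p-values measure the spread between these few arrays, whose number limits the precision. Alternatives are given in the closing section.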

Additional observations from a re-analysis of the deposited data

Results flagged for a closer look

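Camp probe 1 lay above its reference in both mutant pools of 3 days (0.12 and 0.04) and below it in both of 7 days (-0.52 and -0.69), so that the mean log2 ratio differed by -0.688 between the ages. Every pool of one age thus read on the other side of 0 from every pool of the other age. The difference was not tested, and age and slide cannot be told apart.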

How the results depend on the processing

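Probes called in Cy/+ numbered 2427 (1416 higher) by loess, 0 with the scanner software's log ratio and with scaling between arrays, 15400 (12357 higher) with median centring, 4864 with slide as a block and 797 to 3214 with an array left out. Called in Cy/Cy were 0, against 13280 (10150 higher) with median centring, 2 without the filter on dim probes, 15 with slide as a block and 0 to 60 with an array left out; between Cy/Cy and Cy/+ 0, against 9 with median centring and 0 to 211 with an array left out. For age the count of 2999 became 1188 without the pool as a block and 0 to 5671 with a pool left out; with the arrays labelled +/+ left out of the normalisation, chosen after seeing the data, it was 3061 and Alas2 kept an adjusted p of 0.0151. With the software's log ratio, probes at least 2-fold apart on the arrays labelled +/+ numbered 9841 in place of 5754 at 3 days and 8994 in place of 4536 at 7 days. With median centring the sign turned for Alas2 in Cy/+ (0.0345) and, in Cy/Cy, for Alas2 (0.23), S100a8 probe 1 (0.11), S100a8 probe 3 (-0.32), S100a9 (0.0605) and Mpo (-0.33). Read against the kept-probe medians of that scaling, 0.188 in Cy/+ and 0.17 in Cy/Cy, Alas2 in Cy/+ and S100a8 probe 1 and S100a9 in Cy/Cy stayed below the median probe. Without the 7-day Cy/Cy array it turned in Cy/Cy for S100a8 probe 1, S100a8 probe 2, S100a9 and Camp probe 1, whose values with an array left out ranged from -0.475 to 0.184, from -0.156 to 0.0347, from -0.386 to 0.102 and from -0.687 to 0.0434. For age it turned for S100a8 probe 2 without background correction (-0.031). With a pool left out the age values ranged from -0.181 to 0.177 for Camp probe 1 (lowest without the reference pool), and, lowest without the Cy/+ pool, from -0.23 to 0.461 for Defa5, from -0.0751 to 0.428 for RatNP-3b and from -0.0459 to 0.0648 for S100a8 probe 2. The cause of these changes was not tested. The labels give no replicate numbers to pair arrays by; slide, which is also age, and pool were the blocks tried. Mpo, S100a8 probe 3 and Camp probe 2 are limited by signal near background.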
